A study of Mus musculus with 32 samples.

Results

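The amino acid transporters studied here were the rows of the deposited expression table whose symbol belongs to the solute carrier families SLC1, SLC3, SLC6, SLC7, SLC36, SLC38 or SLC43, leaving out the glutamate carriers Slc1a2 and Slc1a3. This rule on names, which used no measured value, found 44 of 17586 genes. One of them, Slc7a6os, shares its symbol with a neighbouring carrier gene and is not itself a carrier. RNA came from 4 cell populations sorted from mouse brain, with 8 libraries in each: normal microglia of mice without a tumour, and microglia, differentiated macrophages and undifferentiated macrophages of the tumour, from mice given intracranial GL-261 cells, a mouse glioma line. Each population held 4 libraries from C57BL/6J recipients, called WT, and 4 from Pep3/CD45.1 recipients, called Pep3. All tumour-bearing mice were chimeras made with the opposite strain (PEP-3 into WT, or WT into PEP-3), whereas normal microglia carried the label Nil and no graft, so that tumour, graft and experiment cannot be told apart in the contrast of the microglial populations. The labels gave the normal microglia experiment numbers 1 (WT) and 2 (Pep3), and gave experiments 3 and 4 opposite recipient strains in tumour microglia and in the macrophage populations. Whether each library stands for its own animal was not stated, and the p-values cover only library-to-library spread, some of which may be technical. The labels used here name no treatment beyond the grafts and the tumour.

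Amino acid carriers set which amino acids a cell can take up, export or exchange. Slc3a2 encodes the heavy chain that brings several SLC7 light chains to the cell surface as disulphide-linked pairs; among these light chains Slc7a5 and Slc7a8 exchange large neutral amino acids, Slc7a7 and Slc7a6 exchange cationic for neutral amino acids, and Slc7a11 imports cystine in exchange for glutamate. The cationic transporters Slc7a1 and Slc7a2 import arginine, the substrate shared by arginase and nitric oxide synthase in macrophages, and the SLC38 and SLC36 families carry glutamine and small neutral amino acids at the cell surface and the lysosome. The SLC6 family couples the uptake of neurotransmitters, taurine, creatine and neutral amino acids to sodium and is best known from neurons, astrocytes and epithelia.

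Promoter sequence was taken for genes whose scores moved in opposite directions in the comparisons below, Slc7a11 and Slc7a7, because both held matches to the amino acid response element, the element bound by Atf4 when amino acids are short. The RefSeq promoter table (build GRCm38.p6, 250 bases before to 50 after a gene start) matched 27 of the 44 members, with 38 windows. Each line gives the 200 bases before a start, 5′ to 3′ on the strand of the gene, with matches to TGATGNAA on either strand in capitals. The Slc7a11 stretch is chr3:50443614-50443813 on the minus strand, and the Slc7a7 stretch is chr14:54417945-54418144 on the minus strand, the first of 5 starts in the table.
Slc7a11: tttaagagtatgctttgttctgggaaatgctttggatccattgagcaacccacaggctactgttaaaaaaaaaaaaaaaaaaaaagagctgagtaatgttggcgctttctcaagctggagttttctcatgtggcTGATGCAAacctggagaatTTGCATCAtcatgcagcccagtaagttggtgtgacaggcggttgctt
Slc7a7: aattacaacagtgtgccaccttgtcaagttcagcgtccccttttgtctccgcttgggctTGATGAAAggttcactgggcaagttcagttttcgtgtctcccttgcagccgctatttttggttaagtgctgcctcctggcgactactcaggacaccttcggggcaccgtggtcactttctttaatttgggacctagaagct
In Slc7a11 the matches were TGATGCAA, beginning 66 bases before the start, and its reverse complement TTGCATCA, beginning 47 bases before. In Slc7a7 the match shown, TGATGAAA, began 141 bases before the start, and a second match lay across the start itself. Among the other members only Slc1a4, a neutral amino acid exchanger, had a match, which lay across its start. The motif was present in 4 of the 38 member windows (10.5%) and in 1304 of all 32851 windows (3.97%). The 4 windows belong to 3 genes, and overlapping windows of Slc7a7 share the same match. The antioxidant response element TGACNNNGC, bound by the factor encoded by Nfe2l2, was searched in the same way and occurred in 18.4% of member windows and 12.4% of all windows. Those were 7 member windows of 6 genes, with overlapping windows of Slc7a6 among them. GAGGAAGT, a form of the PU.1 box of myeloid genes, occurred in 2.63% of member windows and 3.2% of all windows. The 3 motifs do not contain one another. A match is a run of letters and no measure of binding.

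The deposited values were signed scores from -6.504 to 6.919 with a mean of 0 for every gene, over all libraries and within each recipient strain. They have no stated base and no level, so results are differences in units of the deposited scale, ± 1 standard error, for 8 libraries against 8, and neither fold changes nor levels between genes are given. Sequencing depth is unknown. The 32 libraries held only 21 dimensions of variation, and 9 libraries had kept less than 50% of their own variation. The sorted identities showed in the marker genes: all 9 microglial markers, P2ry12 and Tmem119 among them, were lower in both macrophage populations than in tumour microglia, and all 8 markers of monocyte-derived macrophages, Ccr2 among them, were higher. Over all 17586 genes the middle difference from tumour microglia was 0.652 in differentiated and 0.715 in undifferentiated macrophages, and the middle difference of tumour from normal microglia was -0.245. A rise therefore also has to be read against the middle of all genes, and the counts of members are given a second time after the median of each library was subtracted.

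Both macrophage populations had higher scores than tumour microglia for 22 of the 44 members, and 19 members were higher in both, beside 31.8% of all genes. The largest difference belonged to Slc7a2, the inducible cationic transporter that supplies arginine. Others that rose included 10 or 11 of the 12 SLC6 genes, the cystine importer Slc7a11, the glutamate and cysteine carrier Slc1a1 and several SLC38 and SLC43 genes. Slc7a7 and Slc7a8, which carry cationic and neutral amino acids as partners of Slc3a2, fell in differentiated macrophages. The heavy chain Slc3a2 itself, the surface glutamine carriers Slc38a1 and Slc38a2, and the exchangers Slc1a5 and Slc7a5 passed the test in none of the comparisons of the deposited scores.

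These counts stand beside a background in which many other genes were called as well. Against tumour microglia, 37% of all genes were called higher and 6.35% lower in differentiated macrophages, where 22 members were higher, 2 lower and 20 not called (adjusted p below 0.05, limma, Benjamini-Hochberg over all genes). In undifferentiated macrophages 36.7% of all genes were higher and 5.19% lower, and 22 members were higher, 1 lower and 21 not called. The median difference of the members was 1.23 and 1.14 in these comparisons, above the medians of all genes, and 30 of the 44 were positive in each. With library medians subtracted, 19.8% of all genes and 16 members were higher in differentiated macrophages, and 19.2% of all genes and 8 members were lower. For undifferentiated macrophages those figures were 16.7% and 10 members higher, and 16.3% and 6 members lower. Centring on 18 widely expressed genes instead gave 43.3% of all genes and 25 members higher and 3.76% and 2 members lower in differentiated macrophages, and 43.5% and 24 members higher and 3.18% and 0 members lower in undifferentiated macrophages. The widely expressed genes had a mean difference of -0.233 and -0.237 in these comparisons, on the other side of 0 from the median of all genes. The comparisons share the tumour microglia, so their counts are not independent of each other. By a moderated F test, 28 of the 44 members differed among the 4 populations, as did 55.5% of all genes.

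**Figure D1:**
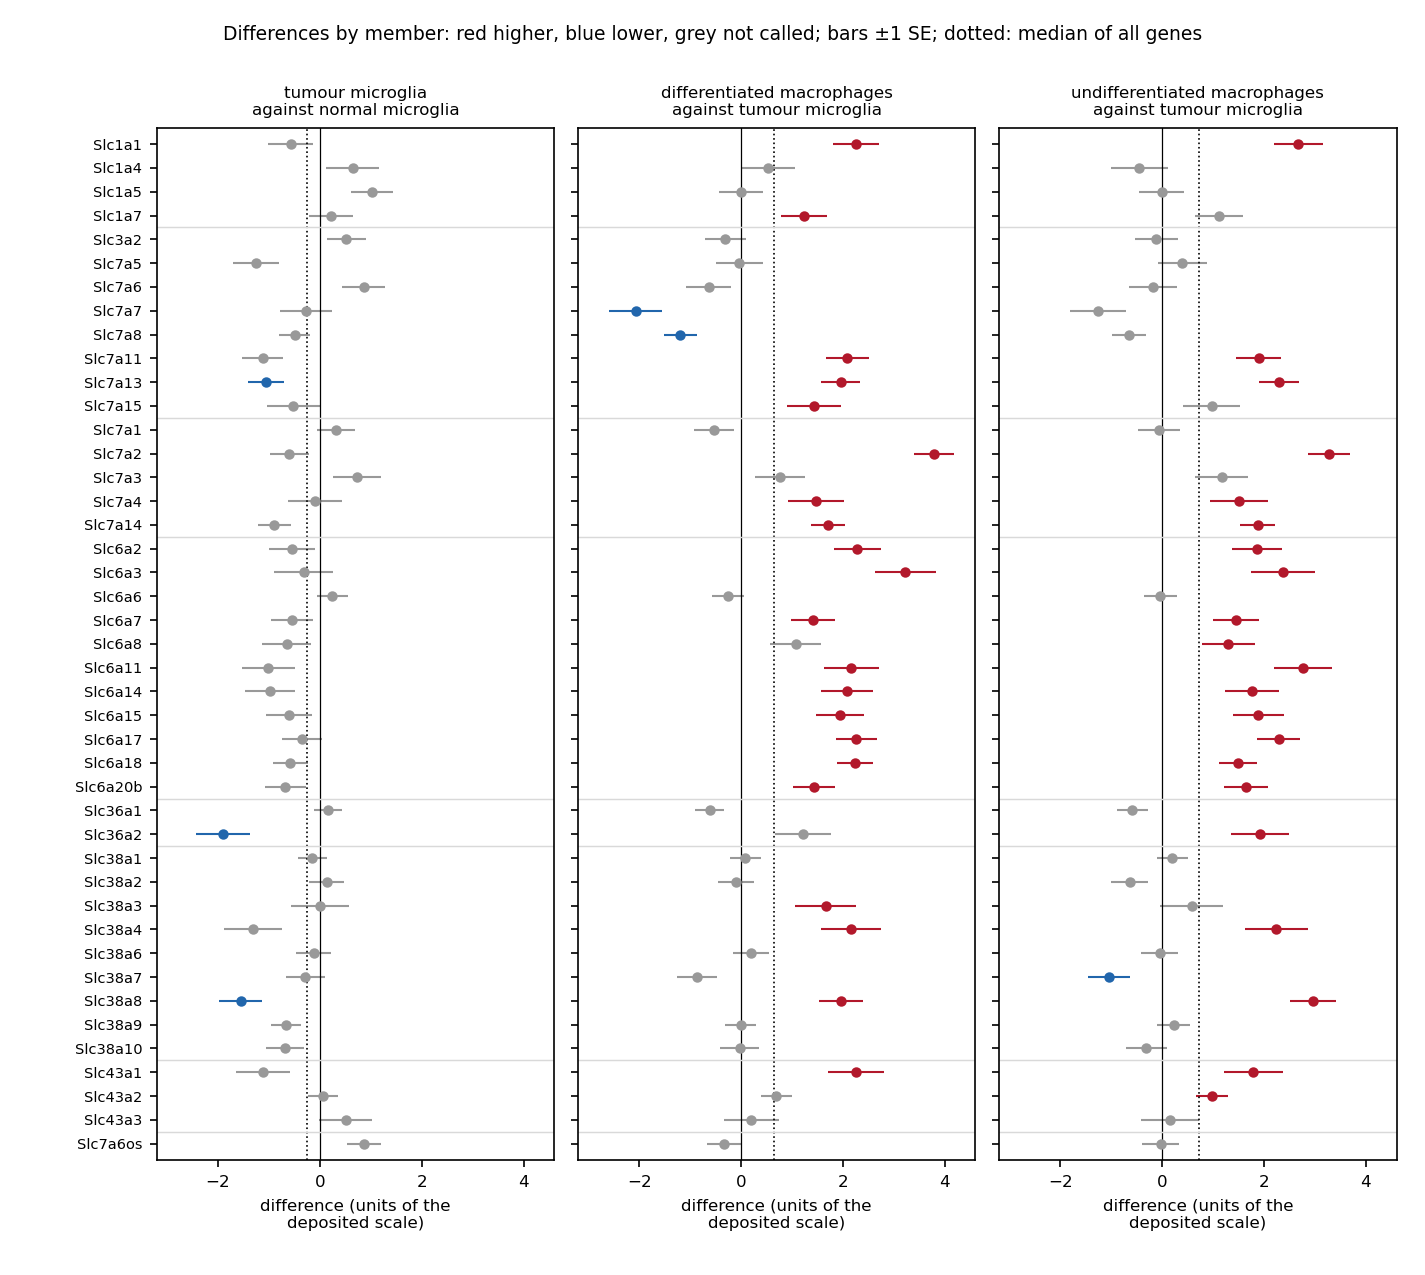
Difference in score (x axis, units of the deposited scale) of the members (rows, grouped by family, with 1 of the 44 left out) in 3 comparisons, with bars of ± 1 standard error, red for higher, blue for lower and grey for not called. In the macrophage panels most SLC6 rows are called higher and Slc7a2 lies farthest right, while Slc7a7 and Slc7a8 lie to the left; the dotted line is the median of all genes.

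Among the cationic transporters, Slc7a2 separated the tumour microglia from both macrophage populations without overlap. Its lowest, median and highest scores were -2.68, -1.09 and -0.764 in normal microglia and -2.72, -1.56 and -0.791 in tumour microglia. They were 0.941, 1.72 and 3.53 in differentiated macrophages and -0.125, 0.802 and 2.65 in undifferentiated macrophages. Every macrophage library lay above every microglial library, of normal or tumour mice. The difference from tumour microglia was 3.79 ± 0.39 (adjusted p = 2.7e-06) in differentiated and 3.27 ± 0.41 (adjusted p = 1.2e-05) in undifferentiated macrophages, and with library medians subtracted it was 3.12 and 2.55. Leaving out any one library kept it between 3.55 and 3.91 in differentiated and between 2.92 and 3.40 in undifferentiated macrophages. Without the 9 libraries that had kept little of their variation it was 3.41 (adjusted p = 0.39) and 2.93 (adjusted p = 0.26), a fit in which no member passed the test, and the same libraries left out with no terms for the removed directions gave 3.12 (adjusted p = 0.00035) and 2.47 (adjusted p = 0.0015).

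The other cationic transporters did not behave alike. Slc7a14, an intracellular member of this branch, ranged from -1.69 to -0.107 in tumour microglia (median -1.13), from -0.0853 to 1.2 in differentiated (median 0.712) and from 0.0395 to 1.02 in undifferentiated macrophages (median 0.747). The macrophage libraries all lay above the tumour microglia, with differences of 1.71 ± 0.33 (adjusted p = 0.00033) and 1.87 ± 0.34 (adjusted p = 0.00026). Slc7a4, a relative for which transport is not established, was higher by 1.47 ± 0.55 and 1.503 ± 0.570 (adjusted p = 0.033 and 0.038). Those calls were lost with library medians subtracted, at 0.804 and 0.782, and in 10 and 15 of the 32 fits without 1 library, with values down to 0.87 and 0.599, both without differentiated macrophage library 31. Slc7a1, the widely expressed arginine importer, gave -0.533 ± 0.389 and -0.062 ± 0.407 and was not called, and its libraries overlapped in all 4 populations (medians -0.0739, 0.246, -0.189 and 0.151, in the order normal microglia, tumour microglia, differentiated and undifferentiated macrophages). After median subtraction Slc7a1 was called lower in differentiated macrophages, at -1.20 (adjusted p = 0.017). Slc7a3 was not called, with 0.771 ± 0.494 and 1.17 ± 0.52.

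**Figure D2:**
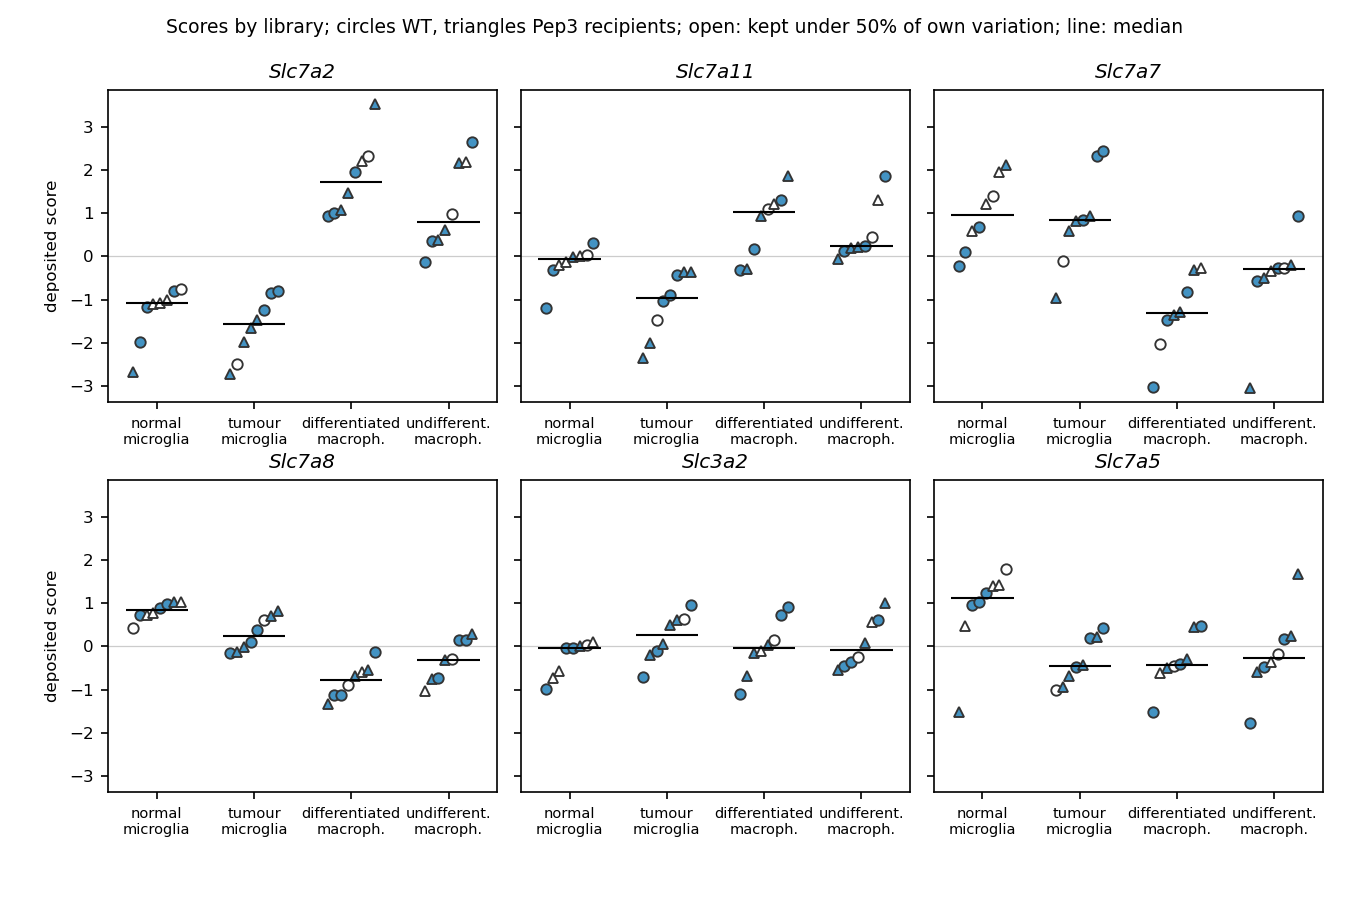
Deposited score (y axis) of 6 members in every library by population, circles for WT and triangles for Pep3 recipients, open symbols for libraries that kept under 50% of their own variation, and a line at the median. Slc7a2 and Slc7a11 are higher in all 16 macrophage libraries than in any tumour microglia library, Slc7a7 and Slc7a8 have their lowest medians in differentiated macrophages, and Slc3a2 overlaps throughout.

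Of the Slc3a2 heavy chain and 7 SLC7 genes grouped with it, 3 rose and 2 fell in differentiated macrophages, and 2 rose and none fell in undifferentiated macrophages. All genes gave 37% and 36.7% higher, and 6.35% and 5.19% lower. The grouping does not mean that each of the 7 pairs with Slc3a2, and pairing was not measured. Slc7a11, the cystine and glutamate exchanger, ran from -2.36 to -0.368 in tumour microglia (median -0.964), from -0.309 to 1.88 in differentiated macrophages (median 1.02) and from -0.0532 to 1.87 in undifferentiated macrophages (median 0.24). Neither macrophage population overlapped with tumour microglia. The differences were 2.085 ± 0.423 (adjusted p = 0.0005) and 1.90 ± 0.44 (adjusted p = 0.0017), and they passed the test in each of the 32 fits that left out 1 library. Normal microglia lay between -1.20 and 0.309 with a median of -0.0648 and overlapped with every other population. The Slc7a11 differences with library medians subtracted were 1.42 (adjusted p = 0.011) and 1.18 (adjusted p = 0.040).

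Slc7a7, the light chain that exports cationic amino acids in exchange for neutral ones, moved the other way. Its scores ran from -0.231 to 2.12 (median 0.958) in normal microglia and from -0.961 to 2.44 (median 0.841) in tumour microglia. In differentiated macrophages they ran from -3.04 to -0.26 (median -1.32), and in undifferentiated macrophages from -3.05 to 0.936 (median -0.301). Every differentiated macrophage library was below the lowest normal microglia library, but some lay above the lowest tumour microglia library. The difference from tumour microglia was -2.07 ± 0.53 (adjusted p = 0.0032) in differentiated macrophages and -1.26 ± 0.55 (adjusted p = 0.072) in undifferentiated macrophages. The call in differentiated macrophages was lost without library 28, a WT library that kept 12.4% of its own variation. The difference was then -0.575, the nearest to 0 of the 32 fits. The score of library 28 itself, -2.04, lay within the range of the other differentiated macrophage libraries. After median subtraction Slc7a7 was called lower in both, at -2.74 (adjusted p = 0.0006) and -1.98 (adjusted p = 0.0089).

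Slc7a8, the second large neutral amino acid light chain, had scores from 0.43 to 1.04 in normal microglia (median 0.842) and from -0.162 to 0.821 in tumour microglia (median 0.24). In the macrophages they ran from -1.33 to -0.118 (differentiated, median -0.78) and from -1.04 to 0.284 (undifferentiated, median -0.302). Normal microglia lay above every macrophage library, and tumour microglia overlapped with both macrophage populations. The difference was -1.19 ± 0.32 (adjusted p = 0.0045) for differentiated macrophages, a call lost without undifferentiated macrophage library 8 (-0.924) or differentiated macrophage library 28 (-1.106), with values between -1.36 and -0.924 over the 32 fits. For undifferentiated macrophages it was -0.658 ± 0.334 (adjusted p = 0.12), and with library medians subtracted -1.38 (adjusted p = 0.0046). A direct comparison of differentiated with undifferentiated macrophages gave -0.815 ± 0.608 for Slc7a7 and -0.533 ± 0.367 for Slc7a8 (adjusted p = 1 for both), so a difference between the macrophage populations was not shown.

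The heavy chain Slc3a2 had medians of -0.0393, 0.272, -0.0402 and -0.0845 in normal microglia, tumour microglia, differentiated and undifferentiated macrophages, and all populations overlapped. Its differences were 0.522 ± 0.387 for tumour against normal microglia, -0.305 ± 0.401 for differentiated and -0.116 ± 0.419 for undifferentiated macrophages against tumour microglia. None was called. Slc7a5, the main leucine importer paired with Slc3a2, gave -0.034 ± 0.460 and 0.395 ± 0.480 in the macrophage comparisons, and Slc7a6 gave -0.633 ± 0.444 and -0.182 ± 0.464. Slc7a6 was called lower in differentiated macrophages only with library medians subtracted, at -1.3 (adjusted p = 0.029). Across libraries, the residuals of Slc3a2 correlated with those of the 7 genes grouped with it between -0.41 and 0.212 (32 libraries that share the same fit, given as a description). The kidney-type light chain Slc7a13 rose by 1.95 ± 0.37 (adjusted p = 0.00031) and 2.29 ± 0.39 (adjusted p = 0.00015). Slc7a15 was higher in differentiated macrophages, at 1.44 ± 0.53 (adjusted p = 0.032), a call lost with library medians subtracted (0.77, adjusted p = 0.23) and in 10 of the 32 fits without 1 library, at the lowest 0.869 without undifferentiated macrophage library 8.

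Nearly all SLC6 genes were called in the same direction. In differentiated macrophages 10 of 12 and in undifferentiated macrophages 11 of 12 were higher than in tumour microglia, with median differences of 2.10 and 1.81. The shares of all genes called higher were 37% and 36.7%. With library medians subtracted 8 SLC6 genes were higher and 1 lower in differentiated macrophages, beside 19.8% and 19.2% of all genes. In undifferentiated macrophages 3 were then higher, beside 16.7% of all genes. Most of the calls in undifferentiated macrophages were therefore lost with that subtraction. Slc6a17, a carrier of neutral amino acids in synaptic vesicles, ran from -2.04 to 0.159 in tumour microglia (median -0.978), from -0.386 to 2.02 in differentiated macrophages (median 1.23) and from 0.472 to 1.85 in undifferentiated macrophages (median 0.819). Slc6a18, a carrier of neutral amino acids in kidney epithelium, ran from -1.70 to -0.38 (median -0.927), from 0.328 to 1.75 (median 1.02) and from -0.327 to 1.44 (median 0.529) in the same order. Slc6a18 showed no overlap between tumour microglia and either macrophage population, and Slc6a17 showed none with undifferentiated macrophages. The differences were 2.26 ± 0.40 and 2.28 ± 0.42 for Slc6a17 (adjusted p = 0.00016 and 0.00026) and 2.24 ± 0.35 and 1.48 ± 0.37 for Slc6a18 (adjusted p = 5.9e-05 and 0.0028).

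The dopamine transporter Slc6a3 spread widely, from -4.60 to 0.174 in normal microglia, -2.23 to 0.457 in tumour microglia, 0.217 to 3.15 in differentiated and -0.246 to 2.82 in undifferentiated macrophages. It differed from tumour microglia by 3.23 ± 0.60 (adjusted p = 0.00024) and 2.36 ± 0.63 (adjusted p = 0.0045), with overlap. Within WT recipients these differences were 1.601 ± 0.945 and 0.25 ± 0.971, and within Pep3 recipients 4.857 ± 1.068 and 4.477 ± 1.143. The strain term was not called in either comparison, and no SLC6 call passed within WT recipients alone. The noradrenaline transporter Slc6a2 (2.28 and 1.86), the astrocytic GABA transporter Slc6a11 (2.16 and 2.77) and the neutral amino acid carriers Slc6a14 (2.08 and 1.76) and Slc6a15 (1.95 and 1.89) were called higher in both comparisons. So were the proline carrier Slc6a7 (1.41 and 1.45) and the family member Slc6a20b (1.44 and 1.64). Some of these calls were lost when a single library was left out. Without tumour microglia library 27, Slc6a11 gave 0.969 in differentiated macrophages and Slc6a20b gave 1.046 and 1.287, none of them called. Without differentiated macrophage library 28, Slc6a14 gave 0.76 and 0.942 and Slc6a20b gave 1.549 in differentiated macrophages, again not called. Without differentiated macrophage library 31, Slc6a7 gave 1.039 and 0.894, and in undifferentiated macrophages Slc6a2 gave 1.373 and Slc6a20b gave 1.135, also not called. Slc6a7 in differentiated macrophages was also not called without undifferentiated macrophage library 8, at 1.325. The creatine transporter Slc6a8 was called in undifferentiated macrophages, at 1.302 ± 0.520 (adjusted p = 0.048), a call lost in 21 of the 32 fits without 1 library, with values down to 0.991 (without differentiated macrophage library 28), and not in differentiated macrophages, at 1.07 ± 0.50 (adjusted p = 0.085). The exception was Slc6a6, the taurine transporter, with medians between -0.168 and 0.145 in the 4 populations and differences of -0.250 ± 0.318 and -0.033 ± 0.332. After median subtraction Slc6a6 was called lower in differentiated macrophages, at -0.917 (adjusted p = 0.026).

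Many markers of cells other than macrophages moved with the SLC6 genes. In differentiated and in undifferentiated macrophages, 6 of 8 astrocyte markers, 6 of 7 neuron markers, all 5 mural and fibroblast markers and all 3 natural killer cell markers were higher than in tumour microglia, and for endothelial markers 4 and 3 of 6 were. Of the other lists, 1 astrocyte marker was lower in each, 1 of 5 oligodendrocyte markers was higher in each, and of 2 neutrophil markers 1 was higher and 1 lower. For dendritic cell markers 3 and 2 of 4 were higher, for T cell markers 2 and 1 of 2, and for B cell markers 2 of 3 in each. In undifferentiated macrophages 1 B cell marker and 1 of 7 proliferation markers were lower. Of all genes 37% and 36.7% were higher in these comparisons. After median subtraction, 4 astrocyte, 3 neuron, 2 mural and fibroblast and 2 natural killer cell markers were higher in each comparison, and 1 and 2 endothelial markers were. Dendritic cell markers then gave 2 and 0 higher, T cell markers 2 and 1, and B cell markers 1 and 2, with 1 B cell marker lower in each. Of the proliferation markers 1 and 6 were lower, and of all genes 19.8% and 16.7% were higher. The median differences ranged from 1.64 to 1.68 for the astrocyte list and from 1.43 to 1.85 for the neuron list. The mean score of the neuron list lay between -1.81 and 0.017 in tumour microglia libraries, between -0.226 and 1.02 in differentiated and between 0.081 and 0.909 in undifferentiated macrophages; that of the astrocyte list lay between -1.19 and 0.025, 0.098 and 0.914, and 0.049 and 1.01. The scores have no zero point, so whether any of these markers was absent could not be read from them. The mean score of the 12 SLC6 genes followed the median of all genes across the 32 libraries (Pearson r = 0.942, a description, since each pair of values comes from the same library). Median subtraction left 8 SLC6 genes higher in differentiated and 3 in undifferentiated macrophages. The part of other cells, or of the scaling of the libraries, in the SLC6 result was not tested. In these bulk libraries fewer cells that carry a gene and less RNA per cell cannot be told apart.

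**Figure D3:**
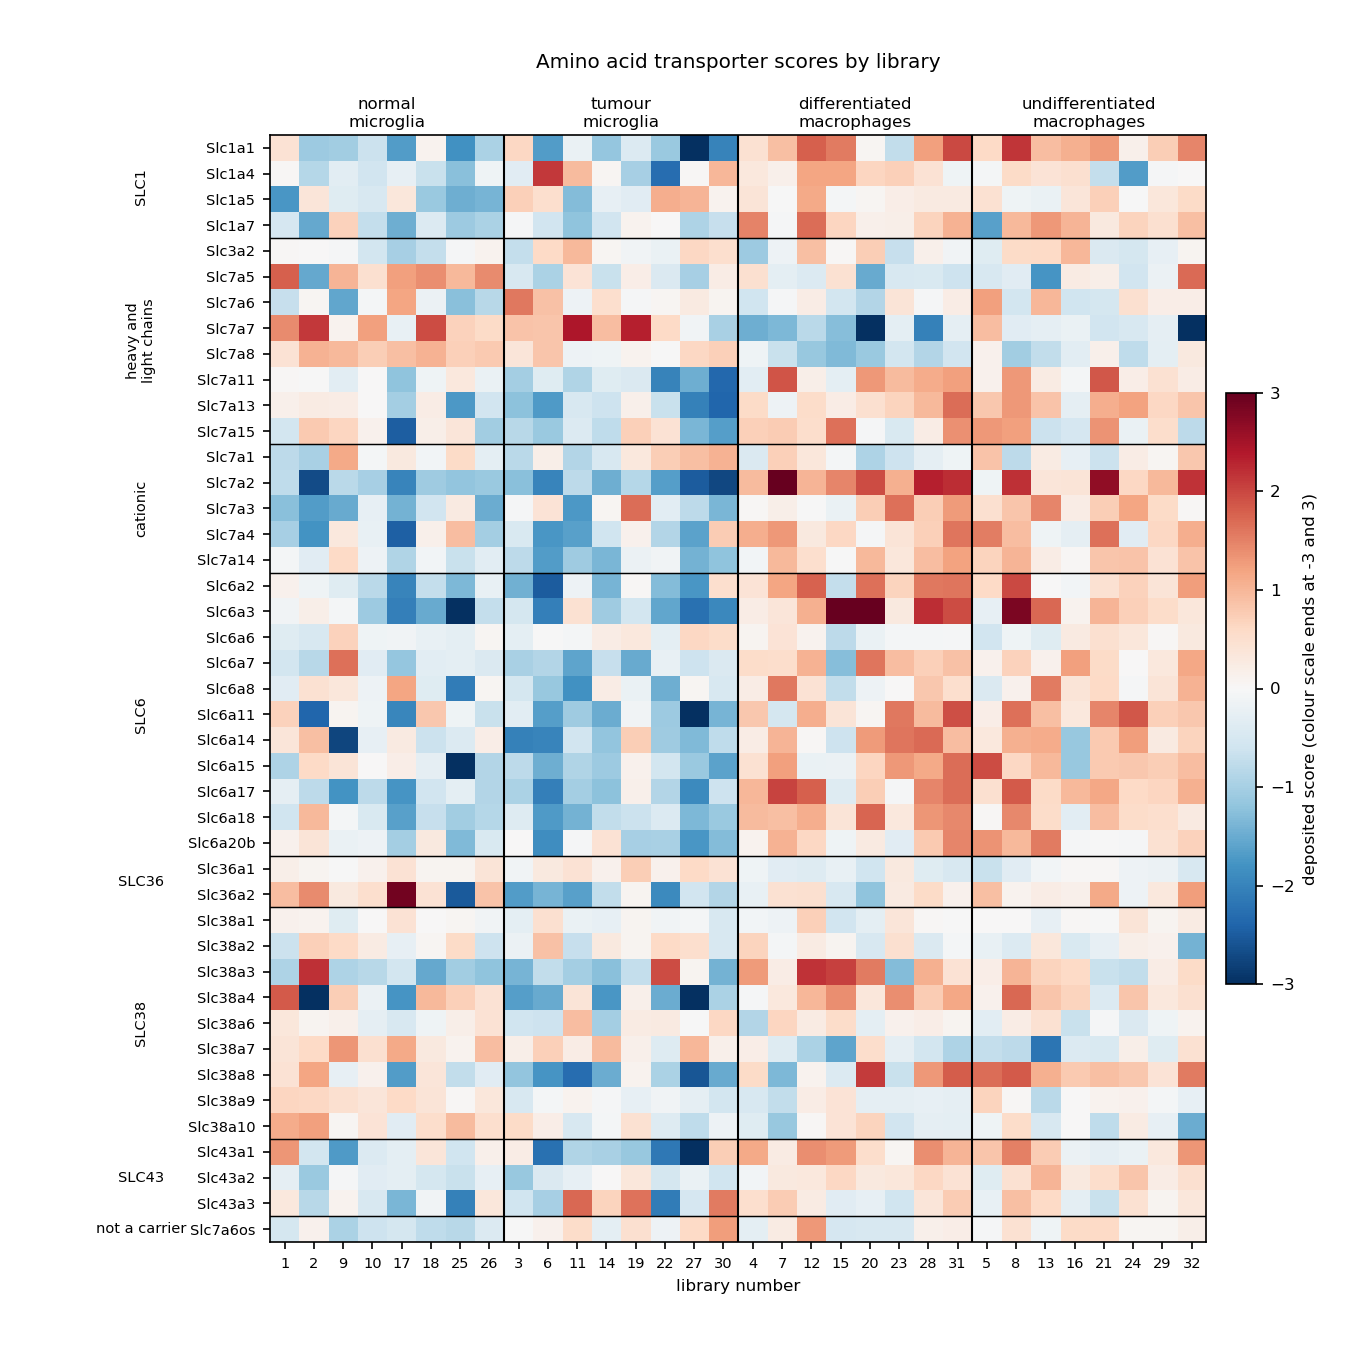
Deposited scores (colour, blue low and red high, ending at -3 and 3) of the members (1 of the 44 left out) in 32 libraries, ordered by population and library number, with members grouped by family. The SLC6 block is mostly blue in tumour microglia and red in the macrophages, Slc7a2 is the row with the strongest contrast, and Slc7a7 and Slc7a8 run the other way.

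The glutamate and neutral amino acid carriers of the SLC1 family were split. Slc1a1, which takes up glutamate and cysteine, had scores from -2.99 to 0.617 in tumour microglia (median -1.13), from -0.746 to 1.98 in differentiated macrophages (median 1.07) and from 0.15 to 2.14 in undifferentiated macrophages (median 1.00). Medians were well apart, although single libraries overlapped. The differences were 2.26 ± 0.46 (adjusted p = 0.00052) and 2.68 ± 0.48 (adjusted p = 0.00021), and they stayed past the test in every fit without 1 library. Within WT recipients they were 0.590 ± 0.723 and 0.710 ± 0.743, neither called. Within Pep3 recipients they were 3.925 ± 0.818 and 4.642 ± 0.875, both called, and the strain term was not called. Slc1a7, a glutamate carrier of the retina, was higher in differentiated macrophages (1.24 ± 0.44, adjusted p = 0.028), a call lost with library medians subtracted (0.57, adjusted p = 0.28) and in 6 of the 32 fits without 1 library. The values in those fits were 1.029 and 0.866 without differentiated macrophage libraries 4 and 31, 1.163 and 0.915 without undifferentiated macrophage libraries 8 and 29, and 1.117 and 1.045 without tumour microglia libraries 11 and 27. In undifferentiated macrophages it gave 1.12 ± 0.46 (adjusted p = 0.057). The neutral amino acid exchangers were not called: Slc1a5, which carries glutamine, differed by -0.002 ± 0.426 and -0.008 ± 0.445, and Slc1a4 by 0.534 ± 0.534 and -0.447 ± 0.558.

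Among the 9 SLC38 genes, 3 were higher in differentiated macrophages, and 2 were higher and 1 lower in undifferentiated macrophages. Of all genes 37% and 36.7% were higher and 6.35% and 5.19% lower, so the family as a whole did not stand out as higher. Slc38a8, a glutamine carrier of the retina, ran from -2.56 to 0.0952 in tumour microglia (median -1.49), from -1.35 to 2.10 in differentiated macrophages (median 0.341) and from 0.404 to 1.84 in undifferentiated macrophages (median 0.996). The last of these did not overlap with tumour microglia. Its differences were 1.97 ± 0.43 (adjusted p = 0.00094) and 2.97 ± 0.45 (adjusted p = 5.3e-05). Slc38a4 rose by 2.17 ± 0.59 and 2.24 ± 0.62 (adjusted p = 0.0051 and 0.006), and the glutamine carrier Slc38a3 rose by 1.66 ± 0.59 in differentiated macrophages (adjusted p = 0.027). The Slc38a4 calls were both lost without tumour microglia library 27, at 0.939 and 1.109, the first also without undifferentiated macrophage library 8 (1.373) and the second without differentiated macrophage library 31 (1.489). The Slc38a4 differences were 0.399 and 0.452 within WT recipients, and 3.935 and 4.02 within Pep3 recipients. The Slc38a3 call was lost with library medians subtracted (0.993, adjusted p = 0.20) and in 5 of the 32 fits without 1 library: 8 (undifferentiated, 1.608), 15 and 28 (differentiated, 1.331 and 1.62), and 14 and 30 (tumour microglia, 1.511 and 1.396). Slc38a7, a glutamine exporter of the lysosome, fell by 1.04 ± 0.41 in undifferentiated macrophages (adjusted p = 0.047), a call lost in 21 of the 32 fits without 1 library, and gave -0.861 ± 0.394 in differentiated macrophages (adjusted p = 0.081).

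The SLC38 members of general use were not called on the deposited scores, and in the macrophage comparisons Slc38a1 and Slc38a9 gave small differences. Slc38a1 differed by 0.089 ± 0.297 and 0.199 ± 0.310, Slc38a2, the carrier that cells raise when amino acids are short, by -0.091 ± 0.352 and -0.638 ± 0.368, and Slc38a9, the lysosomal arginine sensor of the mTORC1 pathway, by -0.008 ± 0.310 and 0.231 ± 0.324. Slc38a2 was called lower in undifferentiated macrophages only with library medians subtracted, at -1.36 (adjusted p = 0.0075). Slc36a1, which exports small neutral amino acids from lysosomes, had medians of 0.106, 0.367, -0.356 and -0.165 in normal microglia, tumour microglia, differentiated and undifferentiated macrophages. It gave -0.611 ± 0.284 and -0.583 ± 0.297 against tumour microglia (adjusted p = 0.086 and 0.12), and with library medians subtracted it was called lower in both, at -1.28 (adjusted p = 0.0028) and -1.304 (adjusted p = 0.004). Its relative Slc36a2 was higher in undifferentiated macrophages, at 1.92 ± 0.58 (adjusted p = 0.010), a call lost with library medians subtracted, at 1.199 (adjusted p = 0.13), and without undifferentiated macrophage library 29, at 1.604.

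Of the SLC43 genes, Slc43a1, a facilitative carrier of branched-chain amino acids, rose by 2.26 ± 0.55 and 1.79 ± 0.58 (adjusted p = 0.0023 and 0.016). Those values changed sign without the 9 libraries that had kept little of their variation, to -1.44 and -0.924. The call in differentiated macrophages was lost without tumour microglia library 27 (1.189) or differentiated macrophage library 28 (1.768). That in undifferentiated macrophages was lost without either of these (0.811 and 1.487), without undifferentiated macrophage library 8 (1.505) or differentiated macrophage library 31 (1.62), and with library medians subtracted (1.069, adjusted p = 0.15). Slc43a2, a related large neutral amino acid carrier, had medians of -0.318, -0.339, 0.335 and 0.473 in the order used above and rose in undifferentiated macrophages by 0.979 ± 0.319 (adjusted p = 0.017), a call lost with library medians subtracted (0.259, adjusted p = 0.55) and without differentiated macrophage library 28 (0.842). In differentiated macrophages it gave 0.694 ± 0.305 (adjusted p = 0.069). The members Slc7a3, Slc38a6, Slc38a10, Slc43a3 and Slc7a6os were called in none of the comparisons of the deposited scores. After median subtraction Slc7a6os was lower in differentiated macrophages (-0.991, adjusted p = 0.032) and Slc38a10 lower in undifferentiated macrophages (-1.033, adjusted p = 0.048).

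In tumour microglia against normal microglia, 3 members were lower, none was higher and 41 were not called, beside 12% of all genes lower and 4.66% higher. By unadjusted p, 11 members (25%) and 31.9% of all genes were below 0.05, and the medians were -0.423 for the members and -0.245 for all genes. Slc36a2, a proton-coupled carrier of glycine and proline, ran from -2.52 to 2.89 in normal microglia (median 0.677) and from -1.92 to 0.071 in tumour microglia (median -1.14), a difference of -1.90 ± 0.53 (adjusted p = 0.018). Slc38a8 ran from -1.68 to 1.17 (median -0.0595) in normal microglia and fell by 1.56 ± 0.42 (adjusted p = 0.014), and Slc7a13 fell by 1.06 ± 0.36 (adjusted p = 0.048). All 3 overlapped between the populations. The Slc7a13 call was lost in 18 of the 32 fits without 1 library, and it was lost with library medians subtracted (-0.81, adjusted p = 0.10), as was the Slc36a2 call (-1.651, adjusted p = 0.052). The Slc36a2 call was also lost without normal microglia libraries 1 (-2.264), 2 (-1.593), 10 (-2.022) or 26 (-1.668). The Slc38a8 call was lost without normal microglia libraries 1 (-1.72), 10 (-1.215) or 18 (-1.387) or tumour microglia library 27 (-1.176). These are the contrasts in which tumour, graft and experiment cannot be told apart.

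Several carriers of wide use came near the threshold in tumour microglia. Slc7a5 ran from -1.52 to 1.79 in normal microglia (median 1.13) and from -1.01 to 0.421 in tumour microglia (median -0.45), with 7 of the 8 normal libraries above every tumour library and library 2 below all of them. The difference of -1.25 ± 0.44 was not called (adjusted p = 0.055). Slc7a11 gave -1.12 ± 0.41 (adjusted p = 0.061), and Slc1a5 gave 1.02 ± 0.41 (adjusted p = 0.089), with medians of -0.804 and 0.30 in normal and tumour microglia. With library medians subtracted 7.72% of all genes and 2 members were higher, Slc1a5 and Slc7a6os, and 7.60% of all genes and 1 member were lower. Centring on the widely expressed genes, which had a mean difference of 0.459, gave 2.31% of all genes and 0 members higher and 29.9% and 15 members lower.

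No member was called between differentiated and undifferentiated macrophages, where 0% of all genes were higher and 0.0114% lower. By unadjusted p, 0 of the 44 members and 2.79% of all genes were below 0.05, and the median difference was -0.042 beside -0.0456 for all genes. The standard errors in this comparison were wider, with a median of 0.497 over all genes against 0.432 for differentiated macrophages against tumour microglia. For Slc7a2 the difference was 0.516 ± 0.448, for Slc7a11 0.186 ± 0.486 and for Slc38a8 -0.998 ± 0.495 (adjusted p = 1 for each). The Slc38a8 difference went uncalled although it was larger than its error, so differences of that size could be missed here.

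Dependence on recipient strain could be tested only with low precision, since the directions removed from the table overlap with it: the median standard error of the strain term was 1.17 for differentiated macrophages against tumour microglia, beside 0.432 for the comparison itself. One member depended on strain in tumour against normal microglia, Slc6a3, beside 5.03% of all genes. None did in differentiated macrophages (0.449% of all genes), undifferentiated macrophages (0.00569%) or between the macrophages (0%). By unadjusted p, 13, 3, 10 and 2 members were below 0.05 in these 4 comparisons, beside 21.1%, 15.7%, 16.2% and 4.04% of all genes. For Slc7a2 the difference of differentiated macrophages from tumour microglia was 1.58 ± 0.61 in WT (adjusted p = 0.25) and 6.00 ± 0.69 in Pep3 recipients (adjusted p = 2.3e-05), and the strain term did not pass the test (adjusted p = 0.056). For Slc7a11 those values were 0.950 ± 0.666 and 3.22 ± 0.75 (adjusted p = 0.51 and 0.0026, strain term 0.34). No call on any member passed within WT recipients alone, and 34 of the 50 calls passed within Pep3 recipients alone. In the tumour populations recipient strain changes together with experiment number, and they cannot be told apart.

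Genes that use or sense the carried amino acids did not follow the carriers as a block. Of 17 measured enzymes of amino acid metabolism, 4 were higher and 3 lower in differentiated macrophages, and 5 higher and 2 lower in undifferentiated macrophages. The shares of all genes were 37% and 36.7% higher, and 6.35% and 5.19% lower. After median subtraction 1 enzyme was higher in each, and 4 and 5 were lower. All genes then gave 19.8% and 16.7% higher, and 19.2% and 16.3% lower. Arg1, the arginase that splits arginine, was higher by 3.58 ± 0.87 (adjusted p = 0.0023) and 3.35 ± 0.90 (adjusted p = 0.0054). Ass1, which rebuilds arginine from citrulline, was higher by 1.55 ± 0.47 and 1.96 ± 0.49 (adjusted p = 0.01 and 0.0029). Nos2, the inducible nitric oxide synthase, was higher by 1.54 ± 0.52 in undifferentiated macrophages (adjusted p = 0.021). Bcat1, which transfers the amino group of branched-chain amino acids, was higher by 1.42 ± 0.53 and 1.90 ± 0.55 (adjusted p = 0.032 and 0.0081); the spermidine synthase Srm had -1.25 ± 0.39 and -1.52 ± 0.41 (adjusted p = 0.013 and 0.0051) and was lower in both. Of these calls, those on Arg1 (2.913 and 2.628, adjusted p = 0.012 and 0.03) and Srm (-1.918 and -2.241) were kept with library medians subtracted. Those on Ass1 (0.884 and 1.236, adjusted p = 0.14 and 0.057), Bcat1 (0.756 and 1.176, adjusted p = 0.25 and 0.093) and Nos2 (0.818, adjusted p = 0.24) were lost.

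The aminoacyl tRNA synthetases load amino acids onto tRNA. In differentiated macrophages 8 of 18 were lower and in undifferentiated macrophages 10 of 18, and none was higher, with median differences of -1.04 and -1.13. Of all genes 6.35% and 5.19% were lower in these comparisons. With library medians subtracted 14 synthetases were lower in each, beside 19.2% and 16.3% of all genes. Mars (methionine) had -2.36 ± 0.49 and -1.67 ± 0.51, Vars (valine) -2.23 ± 0.34 and -1.88 ± 0.36 and Cars (cysteine) -1.38 ± 0.45 and -2.26 ± 0.47, each called lower in both. In tumour against normal microglia 2 of the 18, Gars and Kars, were higher, beside 4.66% of all genes.

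The list of the Atf4 response to amino acid shortage held 18 measured genes. In differentiated macrophages 1 was higher and 4 lower, beside 37% and 6.35% of all genes. In undifferentiated macrophages 2 were higher and 3 lower, beside 36.7% and 5.19% of all genes. After median subtraction 1 was higher in each, and 7 and 5 were lower. Of all genes 19.8% and 16.7% were then higher, and 19.2% and 16.3% lower. The lower ones included the serine synthesis enzymes Phgdh (-2.20 ± 0.37 and -2.13 ± 0.39, adjusted p = 0.00011 and 0.00026) and Psat1 (-2.11 ± 0.59 and -1.70 ± 0.62, adjusted p = 0.0063 and 0.03), and the stress factor Ddit3 (-1.78 ± 0.45 and -1.29 ± 0.47, adjusted p = 0.0029 and 0.031). Vldlr was higher in both (2.44 ± 0.33 and 2.33 ± 0.35). In tumour against normal microglia 3 were higher, among them Atf3 (1.66 ± 0.49, adjusted p = 0.024), and Vldlr was lower (-2.15 ± 0.32, adjusted p = 0.00028). The shares of all genes in that comparison were 4.66% higher and 12% lower.

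A list of cystine, glutathione and antioxidant response genes held 12 that were measured. Of these, 2 were higher and none lower in each macrophage population, beside 37% and 36.7% of all genes higher and 6.35% and 5.19% lower. The 2 were Nqo1 (1.56 ± 0.41 and 1.24 ± 0.43) and the glutathione reductase Gsr (0.975 ± 0.383 and 1.08 ± 0.40). Neither was called with library medians subtracted. In tumour against normal microglia 4 of the 12 were higher and none lower, with Hmox1 at 2.41 ± 0.47 (adjusted p = 0.0018), Gsr at 1.87 ± 0.37 (adjusted p = 0.002), Txnrd1 at 1.39 ± 0.40 (adjusted p = 0.022) and Gpx1 at 1.25 ± 0.32 (adjusted p = 0.011), while Slc7a11 itself gave -1.12 ± 0.41 and was not called. There 4.66% of all genes were higher and 12% lower. Of the 21 amino acid sensing and mTORC1 genes, 3 were higher, led by the mTORC1 subunit Mlst8 (1.57 ± 0.47, adjusted p = 0.0091), and 2 lower in differentiated macrophages, and 1 was higher in undifferentiated macrophages, the Rag GTPase Rragb (1.299 ± 0.338, adjusted p = 0.004). These counts of higher genes also stand beside 37% and 36.7% of all genes. After median subtraction none of the 21 was higher, and 8 and 6 were lower, beside 19.2% and 16.3% of all genes lower. Mlst8 (0.902, adjusted p = 0.12) and Rragb (0.578, adjusted p = 0.18) lost their calls. Of 11 lysosomal, mitochondrial and other carriers, 2 were higher in differentiated macrophages, the mitochondrial carriers Slc25a12 (1.53 ± 0.43) and Slc25a15 (1.13 ± 0.43), and none was called in undifferentiated macrophages. The shares of all genes called higher were again 37% and 36.7%. The same subtraction left 0 higher and 2 lower in each, with Slc25a12 at 0.866 (adjusted p = 0.10) and Slc25a15 at 0.467 (adjusted p = 0.42) not called.

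**Figure D4:**
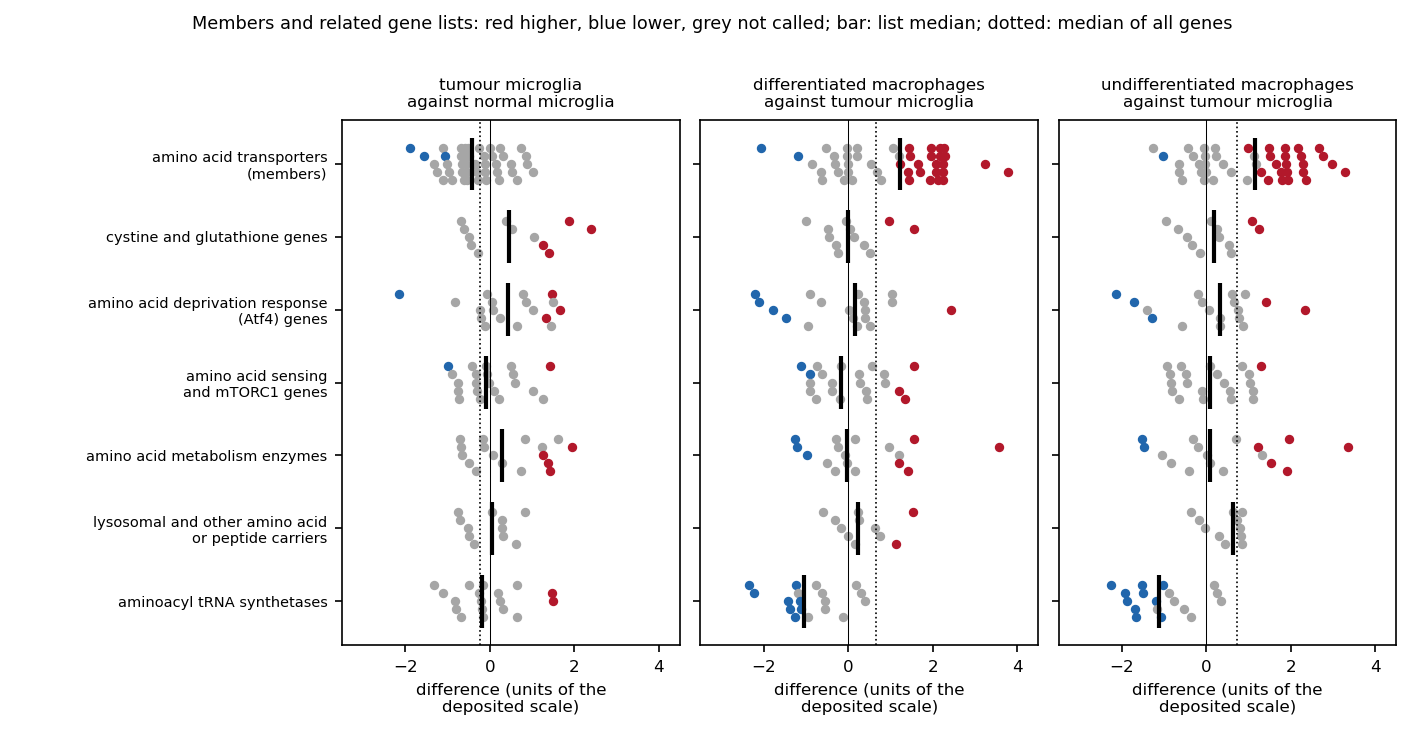
Difference in score (x axis, units of the deposited scale) of the 44 members and of 6 related gene lists (rows) in 3 comparisons, one point per gene, red for higher, blue for lower and grey for not called, with a bar at the median of each list and a dotted line at the median of all genes. The members' medians of 1.23 and 1.14 lie to the right in the macrophage panels and the tRNA synthetases' medians of -1.04 and -1.13 to the left.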

How the data were processed

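The SMART-Seq v4 Ultra Low Input kit made cDNA from the RNA of sorted cells, per the labels' protocols. FastQC, STAR 2.5.0a, RSEM 1.3.0 and genome build mm9 are named per the submitters' processing notes. The authors deposited one table of 17586 genes in 32 libraries, whose values were treated as a score of unstated scale, since they are signed and centred. How 11 sample directions came to be removed is not given in the sources used here.

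Scores were used as deposited, with no filter or pseudocount. One limma 3.58.1 model in R 4.3.3 held terms for population and for population by recipient strain, plus the 11 removed directions (15 residual degrees of freedom). Variances were moderated with the robust option, and two-sided p-values were adjusted by Benjamini-Hochberg over all genes and called below 0.05. It was tested on simulated data. A left-out library received a term of its own. Alternatives were other scalings, no direction terms, library weights, non-robust variances, fewer libraries and single recipient strains; centring on 18 widely expressed genes, and the fit without both the 9 little-varying libraries and the direction terms, were chosen after seeing the data. Members named were those called in any comparison plus 16 carriers fixed by role, and of other lists up to 4 called genes with the largest differences. The members and lists were chosen with earlier results of these data known. Promoter windows came from RefSeq (GRCm38.p6), another build than that of the table, and were joined by symbol alone. The values of 1 member are not reported here, though it is part of every count.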

Additional observations from a re-analysis of the deposited data

Results flagged for a closer look

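In each population the 8 libraries of each member were checked for one library far from the others (a gap to its neighbour above 0.526 of the range). This was met in 22 of 176 sets of libraries. The limit gives about 1 in 20 for independent values of a normal distribution, which these centred scores with removed directions are not. The rate over all genes was not computed, so the count is no measure of an excess.

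In normal microglia, library 25 was far below the rest for Slc6a3 (-4.60, neighbour -2.06), Slc6a15 (-3.49, neighbour -0.925) and Slc6a8 (-2.10, neighbour -0.368). Library 9 was far below for Slc6a14 (-2.75) and far above for Slc6a7 (1.645) and Slc6a6 (0.689). Library 2 was far above for Slc38a3 (2.19) and far below for Slc7a5 (-1.525, neighbour 0.483), and library 17 was far below for Slc7a11 (-1.20). Without library 17, 7 members were called lower in tumour microglia in place of 3.

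In tumour microglia, library 22 was far above for Slc38a3 (1.95) and library 27, which kept 39% of its own variation, was far below for Slc6a11 (-3.40). In differentiated macrophages, library 12 was far above for Slc1a5 (1.15) and Slc7a6os (1.297), library 4 far below for Slc43a2 (-0.091) and library 15 far below for Slc6a7 (-1.28).

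In undifferentiated macrophages, library 16 was far below for Slc6a14 (-1.15), Slc6a15 (-1.13) and Slc7a13 (-0.271), library 32 for Slc7a7 (-3.05, neighbour -0.569) and Slc38a2 (-1.43), library 13 for Slc38a7 (-2.19) and library 5 for Slc1a7 (-1.64).

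Slc6a3 was the member whose difference depended on recipient strain. Tumour against normal microglia gave 2.83 ± 1.00 in WT and -3.46 ± 1.16 in Pep3 mice, a strain term of 6.29 ± 1.84 (adjusted p = 0.048). The lowest value, of library 25, belongs to this comparison. The term was not called with library medians subtracted, and experiment number and graft change with strain here.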

How the results depend on the processing

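Of the 50 calls on members, 30 were kept with library medians subtracted, 49 without terms for the removed directions, 50 without the robust option, 40 with library weights, 49 with widely expressed genes subtracted, 34 within Pep3 recipients, 0 within WT recipients, 1 with only the groups compared and 0 without the 9 libraries that kept under 50% of their variation. Without those libraries and without direction terms 39 were kept. The fit without the 9 libraries has 6 residual degrees of freedom and that on the groups compared 3, while the fit within WT recipients uses all libraries and keeps 15. The cause of these changes was not tested.

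The counts moved as follows. For tumour against normal microglia, 2 members were higher with library medians subtracted and 2 without direction terms, in place of 0. There, members lower became 1 with library medians subtracted, 1 with library weights, 0 without the 9 libraries (with or without direction terms), 0 with only the groups compared, 0 within WT and 6 within Pep3 recipients, and 15 with widely expressed genes subtracted, in place of 3. For differentiated macrophages against tumour microglia, members higher became 0 without the 9 libraries, 1 with only the groups compared and 0 within WT recipients, in place of 22. Members lower became 8 with library medians subtracted, 4 without direction terms, 0 without the 9 libraries, 0 with only the groups compared, 0 within WT and 1 within Pep3 recipients, in place of 2. For undifferentiated macrophages against tumour microglia, members higher became 10 with library medians subtracted and 0 without the 9 libraries, with only the groups compared and within WT recipients, in place of 22. Members lower became 6 with library medians subtracted, 4 without direction terms, and 0 without the 9 libraries, with only the groups compared, within either recipient strain and with widely expressed genes subtracted, in place of 1. Members that depended on strain became 0 in tumour against normal microglia with library medians subtracted, without direction terms, with library weights, without the 9 libraries (with or without direction terms) and with only the groups compared, and 3 with widely expressed genes subtracted, in place of 1; in differentiated macrophages they became 1 with library weights and 2 with widely expressed genes subtracted, and in undifferentiated macrophages 3 with the latter, in place of 0. Members that differed among the 4 populations became 18 with library weights and 0 without the 9 libraries, in place of 28.

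Leaving out each library in turn gave 0 to 2 members higher and 0 to 7 lower in tumour against normal microglia, 17 to 23 higher and 0 to 2 lower in differentiated and 15 to 23 higher and 0 to 2 lower in undifferentiated macrophages against tumour microglia, and 0 between the macrophages. Members that depended on strain ranged from 0 to 3 in the first comparison, from 0 to 1 in the second and stayed at 0 in the others, and those that differed among populations from 18 (without differentiated macrophage library 28) to 29. Of the 50 calls, 24 held in all 32 fits, among them both calls on Slc7a2, Slc7a11 and Slc6a17.

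Values that changed sign were Slc38a8 (0.364) and Slc7a13 (0.80) in tumour against normal microglia within WT recipients; Slc43a1 (-1.44 and -0.924) and Slc7a4 (-1.09 and -0.611) in differentiated and undifferentiated macrophages and Slc6a8 (-0.028) in undifferentiated macrophages without the 9 libraries; and Slc6a20b (-0.021) in undifferentiated macrophages with only the groups compared. No paired analysis was possible because the labels give no replicate number shared between groups and do not state which libraries came from the same animals. Depth is unknown, so its effect on precision could not be read.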
